A study of Mus musculus with 10 samples.

Results

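The netrins and Slits are secreted guidance cues, and Dcc, neogenin, the Unc5 proteins and the Robo proteins are their receptors on the cell surface. The 10 genes described here were chosen by symbol and matched to Ensembl identifiers in the deposited table: the ligands Ntn1, Ntn4, Slit2 and Slit3, and the receptors Dcc, Neo1, Unc5b, Unc5c, Robo1 and Robo2. They are 10 of 53801 genes in the table, and all 10 were among the 16227 genes with a mean normalized count of at least 10 over the libraries. A normalized count is the number of reads of a gene divided by a size factor of its library.

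MIDEAS and DNTTIP1 are subunits of MiDAC, a complex that carries the histone deacetylases HDAC1 and HDAC2. The study made mice with small frameshifting CRISPR-Cas9 deletions in either gene and derived mouse embryonic fibroblast (MEF) lines at embryonic day 13.5, and this comparison asks how the loss of either subunit changed gene expression in those cells. RNA-seq was available for 3 MIDEAS+/+ lines, 3 MIDEAS-/- lines, 2 DNTTIP1+/+ lines and 2 DNTTIP1-/- lines, all labelled as strain C57BL/6 (C57BL/6J in the study's methods), with no treatment and grown in DMEM with serum. Each knockout is 1 deletion allele, homozygous in every cell. The lines were grown from embryo bodies without the head, liver and heart, and are therefore mixtures of the cells that attach and divide. As nothing states whether lines of a group came from separate litters, the p-values measure the spread between these lines.

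Netrins and Slits are known for steering growing axons. Netrin-1 attracts axons through Dcc and repels them through Unc5 receptors, while Slits repel through Robo receptors, which recruit proteins that switch off small GTPases. Outside the nervous system the same genes act in blood vessels, branching epithelia and mesenchyme, and netrin-4 binds laminins in basement membranes.

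The libraries held 12339970 to 19761295 reads, as recovered from the deposited values. Dnttip1 was at 173 and 197 normalized counts in the DNTTIP1-/- lines and at 368 to 443 in all other libraries. Elmsan1, the gene of MIDEAS, was at 1038 to 1728 in the MIDEAS-/- lines and 1272 to 1576 in the MIDEAS+/+ lines, which overlapped, so the RNA level does not check that label. The fibroblast markers (10 genes, Col1a1 among them) summed to 46253 to 58732 in every library, and all were detected in each group. A sum can hide shifts of single markers, which are given below with the other marker lists. Reads of Y-linked genes were high in MIDEAS+/+ replicate 1, DNTTIP1+/+ replicate 1 and DNTTIP1-/- replicate 1, and the other 7 libraries expressed Xist. MIDEAS-/- replicate 1 stood apart from its group. Read counts per gene differed between it and replicates 2 and 3 by a chi-square per gene of 65.1 and 52.9, against 20.2 between replicates 2 and 3 and 18.7 to 25.5 within the other groups. Its 10 most abundant genes took 9.38% of its counts, against 5.14% to 6.50% in the others. For the 10 genes the calls and the separation of lines in the MIDEAS family are therefore also given without it. Results for the other gene lists use all libraries and were not repeated without it here.

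In these cells the guidance genes were expressed at very different levels (levels per kilobase of the longest coding transcript, mean ± SD over lines). In the MIDEAS+/+ lines Unc5b stood at 799 ± 85.5, Slit2 at 507 ± 16.5, Slit3 at 504 ± 207, Neo1 at 357 ± 23.3 and Ntn4 at 348 ± 95.3 normalized counts per kilobase. Robo1 followed at 182 ± 12.4, Unc5c at 136 ± 30.9, Ntn1 at 87.1 ± 26.8 and Robo2 at 18.8 ± 11.5, and Dcc came last at 1.36 ± 0.70. Slit2, Slit3, Neo1 and Ntn4 did not all separate from their neighbours by more than their SDs, nor did Unc5c from Ntn1, whereas Unc5b stood above Slit2, Robo1 below Ntn4, and Robo2 and Dcc below all the rest. Robo2 and Dcc also came ninth and last in the other groups.

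**Figure D1:**
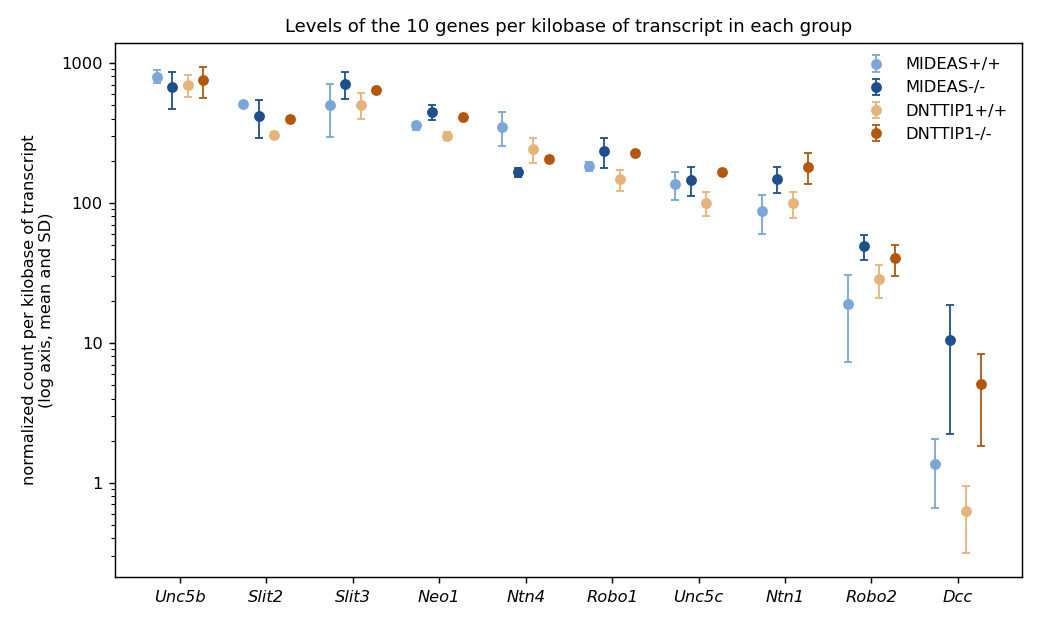
Normalized counts per kilobase of the longest coding transcript (log axis) for the 10 genes, ordered by their mean in MIDEAS+/+ lines; points are group means and bars the SD over 3 lines (MIDEAS) or 2 lines (DNTTIP1). Dcc ran from 0.629 in DNTTIP1+/+ to 10.5 in MIDEAS-/- lines, far below Unc5b at 667 to 799.

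Promoter sequences are shown for Ntn4, Neo1 and Robo1, the 3 genes with an entry that passed the threshold by limma with all libraries (RefSeq, build GRCm38.p6, the 250 bases before the annotated start, 5′ to 3′ on the strand of the gene). RefSeq windows were matched for 8 of the 10 genes, all but Ntn1 and Dcc, with 3 starts for Robo2. Capitals mark the GC box GGGCGG or its reverse complement CCGCCC, the letters that Sp1-type factors read. The windows are chr10:93640799-93641048 (plus strand) for Ntn4, chr9:59036442-59036691 (minus strand) for Neo1 and chr16:72662899-72663148 (plus strand) for Robo1, and none of them lies in an annotated exon. The Ntn4 and Robo1 windows belong to starts 368 and 354843 bases inside the annotated genes, while the counts sum over all starts.
Ntn4 promoter: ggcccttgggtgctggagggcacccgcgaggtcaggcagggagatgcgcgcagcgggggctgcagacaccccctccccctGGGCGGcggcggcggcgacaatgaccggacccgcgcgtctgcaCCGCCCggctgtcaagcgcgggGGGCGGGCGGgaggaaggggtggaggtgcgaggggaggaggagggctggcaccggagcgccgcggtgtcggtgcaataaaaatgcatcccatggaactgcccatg
Neo1 promoter: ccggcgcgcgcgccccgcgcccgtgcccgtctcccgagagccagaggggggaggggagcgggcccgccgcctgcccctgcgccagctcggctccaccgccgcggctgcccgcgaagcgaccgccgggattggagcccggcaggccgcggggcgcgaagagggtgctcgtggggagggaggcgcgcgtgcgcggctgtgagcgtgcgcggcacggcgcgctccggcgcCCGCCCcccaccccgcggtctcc
Robo1 promoter: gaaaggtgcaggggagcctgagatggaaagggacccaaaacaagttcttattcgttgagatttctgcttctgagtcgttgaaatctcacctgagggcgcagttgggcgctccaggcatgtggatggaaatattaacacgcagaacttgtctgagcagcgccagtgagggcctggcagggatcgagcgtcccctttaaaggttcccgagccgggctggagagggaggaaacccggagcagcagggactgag
GC boxes were matched 4 times before Ntn4, with overlapping matches counted separately, once before Neo1 and not before Robo1. They were also found before Slit2 (3), Slit3 (6) and Unc5b (2), and in none of the Unc5c and Robo2 windows. Of all 32851 RefSeq promoter windows of this length, 32.7% hold one. Neo1 also had a CCAAT box (CCAAT, either strand), which 33.8% of windows hold, Slit2 a TATA box (TATAAA, 12.4%) and 1 Robo2 window an E box (CACGTG, 6.02%), and no window held the AP-1 site TGACTCA (4.46%). The GC content was 73.2% before Ntn4, 83.2% before Neo1 and 56.0% before Robo1, against a median of 52.4% over all windows. A match describes the letters of the window and not the binding of a factor.

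Of the ligands, netrin-4 was the one that passed the threshold in MIDEAS-/- against MIDEAS+/+ lines by limma, and it was lower there. Ntn4 (ENSMUSG00000020019, chr10:93640681-93747207 in mm10, plus strand) encodes a netrin that sits in basement membranes and binds laminin chains. Its normalized counts were 960, 1644 and 1200 in the MIDEAS+/+ lines and 551, 641 and 615 in the MIDEAS-/- lines. All 3 knockout lines lay below all 3 wild-type lines, a mean of 603 ± 46.1 against 1268 ± 347 (SD, n = 3 each), or 0.475 of the wild-type mean. The log2 fold change was -1.04 (SE 0.19, 95% interval -1.46 to -0.62, adjusted p = 0.0241, limma with Benjamini-Hochberg adjustment over all 16227 genes). In the DNTTIP1 family Ntn4 stood at 757 and 1012 in wild-type lines and at 750 and 751 in knockout lines. There the knockout lines lay just below the lower wild-type line, with a log2 fold change of -0.22 (95% interval -0.74 to 0.30, adjusted p = 0.935 by limma).

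Netrin-1, the ligand of Dcc, neogenin and Unc5 receptors, had higher means in both knockouts, and neither comparison passed on its own. Ntn1 (ENSMUSG00000020902, chr11:68209364-68400823, minus strand) had normalized counts of 477, 375 and 684 in MIDEAS+/+ lines and 665, 1017 and 919 in MIDEAS-/- lines. Only knockout replicate 1 fell within the wild-type range, and the group means were 512 ± 157 and 867 ± 182 (SD, n = 3 each). The log2 fold change of 0.78 (95% interval 0.22 to 1.34) did not pass (adjusted p = 0.143 by limma). In the DNTTIP1 family the counts were 496 and 671 in wild-type and 876 and 1250.0 in knockout lines, without overlap, and the log2 fold change was 0.86 (95% interval 0.17 to 1.54, adjusted p = 0.635 by limma).

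The Slit genes, whose products bind Robo receptors, did not pass in either family. Slit2 (ENSMUSG00000031558, chr5:47983138-48307733, plus strand) was at 4901, 5226 and 5019 normalized counts in MIDEAS+/+ lines and at 2725, 5085 and 4640.0 in MIDEAS-/- lines. Knockout replicate 1 lay far below the rest, and replicates 2 and 3 lay within or just below the wild-type range (log2 fold change -0.33, 95% interval -0.78 to 0.11; without knockout replicate 1, -0.055). In DNTTIP1 lines Slit2 was at 3147 and 2932 in wild type and 3859 and 3992 in knockout, with a log2 fold change of 0.37 (95% interval -0.17 to 0.91). Slit3 (ENSMUSG00000056427, chr11:35121224-35708507, plus strand) varied among the MIDEAS+/+ lines, at 2181, 1858 and 3868, and stood at 2757, 4250.0 and 4079 in MIDEAS-/- lines. The groups overlapped through wild-type replicate 3, and the log2 fold change was 0.54 (95% interval -0.06 to 1.13). The DNTTIP1 lines gave 3013 and 2245 in wild type against 3422 and 3217 in knockout, a log2 fold change of 0.35 (95% interval -0.37 to 1.08). Leaving out MIDEAS+/+ replicate 3 gave 0.85 for Slit3 in the MIDEAS family (adjusted p = 0.0787 by limma, range over the alternatives 0.0787 to 0.825).

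Among the receptors, Dcc, the transmembrane receptor through which netrin-1 attracts axons, had the widest spread. Dcc (ENSMUSG00000060534, on chromosome 18, minus strand) was at 6.69, 14.3 and 21.1 normalized counts in MIDEAS+/+ lines, from 6, 14 and 27 reads. In MIDEAS-/- lines it was at 10.3, 151 and 164, from 10, 227 and 166 reads. Replicates 2 and 3 lay far above all wild-type lines and replicate 1 lay inside their range. The DNTTIP1 family had Dcc at 4.22 and 8.77 in wild-type lines and at 28.9 and 76.5 in knockout lines, from 28 and 70 reads. Both knockout lines lay above both wild-type lines. The ratio of means was 7.73 in the MIDEAS family and 8.11 in the DNTTIP1 family. The log2 fold changes were 2.26 (95% interval 0.13 to 4.39, adjusted p = 0.267) and 2.75 (95% interval 0.14 to 5.36, adjusted p = 0.743), both by limma on log2 of the count plus 1. Adding 1 lowers the fold changes of genes this low somewhat. The fit also averages logs, so MIDEAS-/- replicate 1, at 10.3, lowers the MIDEAS value more than it lowers the ratio of means.

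Neogenin, encoded by Neo1 (ENSMUSG00000032340, chr9:58874687-59036441, minus strand), is the relative of Dcc that binds netrins and repulsive guidance molecules. It had 2497, 2828 and 2582 normalized counts in MIDEAS+/+ lines and 2833, 3384 and 3625 in MIDEAS-/- lines. The groups did not overlap, although knockout replicate 1 was close to wild-type replicate 2. The log2 fold change was 0.31 (95% interval 0.05 to 0.57, adjusted p = 0.201 by limma). In the DNTTIP1 family Neo1 was at 2333 and 2112 in wild-type and at 3038 and 3030.0 in knockout lines, again without overlap, with a log2 fold change of 0.45 (95% interval 0.14 to 0.77, adjusted p = 0.529 by limma). Of the 10 genes, Neo1 was the one whose knockout lines were higher than every wild-type line of their own family in both families, and Ntn4 the one whose knockout lines were lower.

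**Figure D2:**
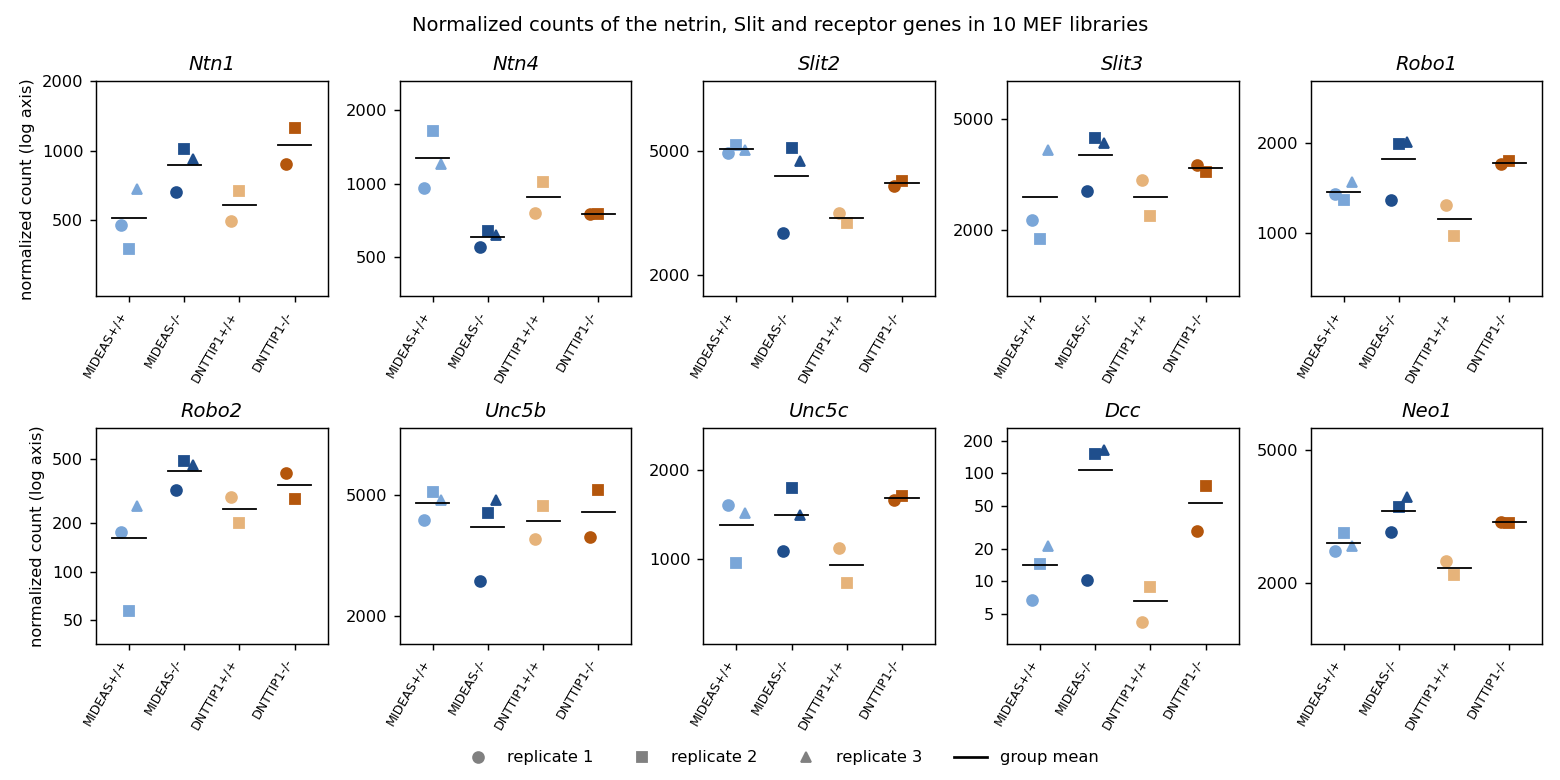
Normalized counts (log axes, each with its own range) of the 10 genes in every library; symbols give the replicate number and lines the group mean. MIDEAS-/- replicate 1, the dark blue circle, is the lowest of its group in every panel, and Dcc lies at 10.3 there against 151 and 164 in replicates 2 and 3.

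The Robo receptors, which bind Slits, were measured at unlike levels. Robo1 (ENSMUSG00000022883, chr16:72308306-73046095, plus strand) had 1352, 1292 and 1475 normalized counts in MIDEAS+/+ and 1285, 1989 and 2025 in MIDEAS-/- lines. Replicates 2 and 3 were above and replicate 1 below all wild-type lines, and the log2 fold change was 0.33 (95% interval -0.06 to 0.73, adjusted p = 0.385 by limma). In the DNTTIP1 family Robo1 was at 1243 and 975 in wild-type and 1699 and 1737 in knockout lines, without overlap, with a log2 fold change of 0.64 (95% interval 0.16 to 1.12, adjusted p = 0.568 by limma). Robo2 (ENSMUSG00000052516, chr16:73891839-74411825, minus strand) was at 175, 57.2 and 253 in MIDEAS+/+ and at 321, 484 and 459 in MIDEAS-/- lines. All knockout lines were above all wild-type lines, with wild-type replicate 2 far below the others. The log2 fold change was 1.59 (95% interval 0.56 to 2.63, adjusted p = 0.106 by limma). Robo2 in the DNTTIP1 family was at 289 and 200.0 in wild-type and 407 and 282 in knockout lines, which overlapped, and the log2 fold change was 0.49 (95% interval -0.77 to 1.76, adjusted p = 0.943 by limma).

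The Unc5 receptors, which carry the repulsive response to netrin-1, did not pass in either family. Unc5b (ENSMUSG00000020099, chr10:60762593-60831581, minus strand), known from the endothelium, was at 4139, 5123 and 4803 normalized counts in MIDEAS+/+ and 2596, 4360.0 and 4790.0 in MIDEAS-/- lines. Replicate 1 was again the low one, and the log2 fold change was -0.30 (95% interval -0.82 to 0.21; without replicate 1, -0.031). The DNTTIP1 lines gave 3586 and 4595 in wild type and 3637 and 5171 in knockout, which overlapped (log2 fold change 0.095, 95% interval -0.54 to 0.73). Unc5c (ENSMUSG00000059921, chr3:141465216-141834924, plus strand) was at 1526, 971 and 1435 in MIDEAS+/+ and 1070.0, 1739 and 1418 in MIDEAS-/- lines, a log2 fold change of 0.10 (95% interval -0.37 to 0.58). The DNTTIP1 lines of Unc5c did not overlap, at 1091 and 830.0 in wild type and 1586 and 1635 in knockout (log2 fold change 0.76, 95% interval 0.18 to 1.34, adjusted p = 0.582 by limma). An exon of the gene Gm15688 overlaps Unc5c on the other strand, and as no strand setting is stated, their reads cannot be told apart.

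Across the 10 genes, 1 was called by limma in MIDEAS-/- against MIDEAS+/+ at an adjusted p under 0.1, Ntn4, and it was lower. Over all genes tested, 3.36% were called higher and 2.29% lower in that comparison. The test by edgeR also called Ntn4 alone, and DESeq2 called 5 (Ntn4 lower, and Ntn1, Robo2, Dcc and Neo1 higher), out of 1674 of the 16227 genes. At an unadjusted p under 0.05 limma gave these 5 as well, against 16.6% of all genes. Of the 10 log2 fold changes, 7 were above 0, with a median of 0.32 against -0.024 over all genes tested, 46.4% of which were above 0. In DNTTIP1-/- against DNTTIP1+/+ none of the 10 was called by limma, edgeR or DESeq2, and 0.0308% of all genes were by limma. At an unadjusted p under 0.05 limma gave 5 of the 10 (Ntn1, Dcc, Neo1, Robo1 and Unc5c, each higher), against 6.46% of all genes, and edgeR and DESeq2 also gave 5. There, 9 of the 10 log2 fold changes were above 0, with a median of 0.47 against 0.001 over all genes, 50.1% of which were above 0. Knockout lines lay above every wild-type line for 2 genes in the MIDEAS family (11.5% of all genes) and for 7 in the DNTTIP1 family (20.1%), and below for Ntn4 in each (11.0% and 18.9%). In both families at once they lay above for 1 gene (5.09%) and below for 1 gene (3.69%).

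The average of both knockout effects, each against its own wild-type lines, was tested for a difference from 0. It can pass through a large effect in 1 family, so a call does not show a change shared by both knockouts. Ntn4 had log2 fold changes of -1.04 for MIDEAS and -0.22 for DNTTIP1. By limma 4 of the 10 genes passed, 3 higher and 1 lower, against 4.04% of all genes called higher and 2.19% called lower. Ntn1 rose by an average log2 fold change of 0.82 (SE 0.20, 95% interval 0.38 to 1.26, adjusted p = 0.0543). Neo1 rose by 0.38 (SE 0.091, 95% interval 0.18 to 0.58, adjusted p = 0.0517) and Robo1 by 0.49 (SE 0.14, 95% interval 0.18 to 0.80, adjusted p = 0.0934), while Ntn4 had -0.63 (SE 0.15, 95% interval -0.96 to -0.30, adjusted p = 0.0508). Dcc had 2.5 (95% interval 0.82 to 4.19, adjusted p = 0.114) and Robo2 1.04 (95% interval 0.23 to 1.86, adjusted p = 0.175). Beside the same 4 genes, edgeR also called Dcc for the average (5 of the 10), and DESeq2 called Dcc and Robo2 (6 of the 10), with 991 and 1731 of all genes called. Unc5c had 0.43 and Slit3 0.44, and Slit2 and Unc5b were near 0 (0.018 and -0.10), with their MIDEAS and DNTTIP1 values of opposite sign. None of the 4 passed at an adjusted p under 0.05, and without DNTTIP1+/+ replicate 2 or DNTTIP1-/- replicate 2 none passed at 0.1.

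**Figure D3:**
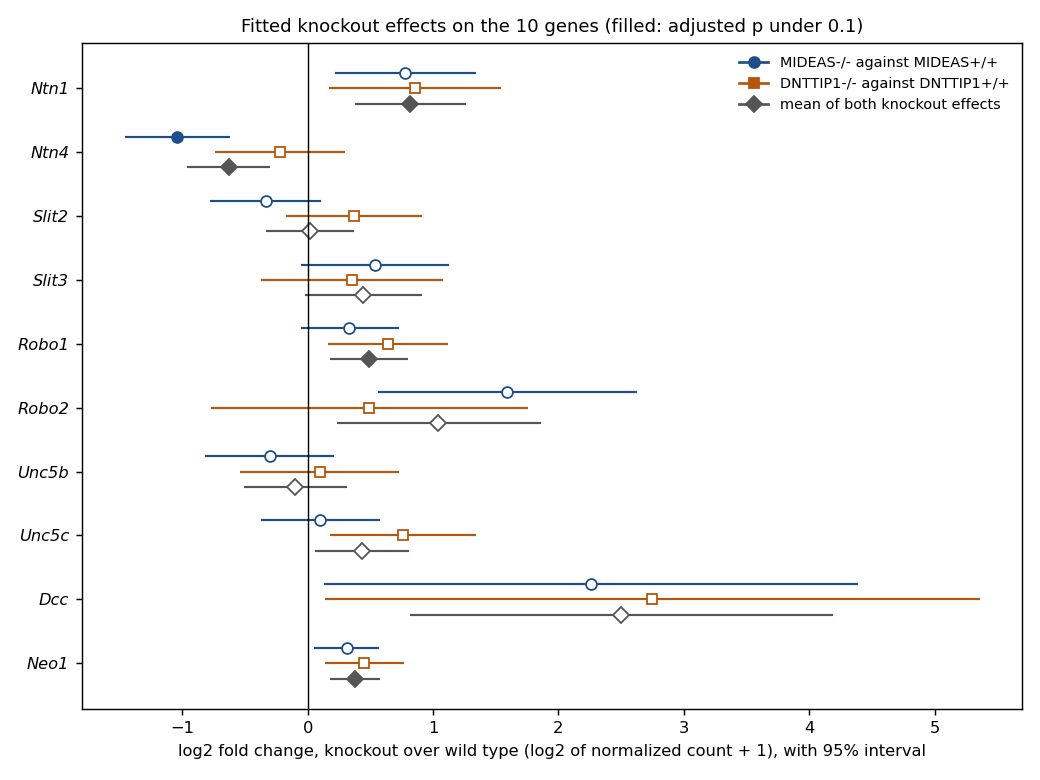
Log2 fold changes with 95% intervals from limma for the 10 genes in each family and for the average of both knockout effects; filled symbols have an adjusted p under 0.1. Ntn4 lies below 0 in all 3 comparisons and is filled for MIDEAS and the average, and Ntn1, Neo1 and Robo1 are filled for the average alone.

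The difference between both knockout effects was tested in the same fit, and it was called for none of the 10 genes and for 0.0% of all genes by limma, nor for any of the 10 by edgeR or DESeq2. At an unadjusted p under 0.05 limma gave 2 of the 10, against 2.79% of all genes, and edgeR and DESeq2 gave 1 each, against 2.68% and 3.28%. The 2 were Ntn4, with -0.82 for the MIDEAS effect minus the DNTTIP1 effect (95% interval -1.49 to -0.15), and Slit2, with -0.70 (95% interval -1.40 to -0.0015). The wild-type lines of both families were also compared, and none of the 10 genes and 0.0% of all genes were called by limma, with Ntn4 and Slit2 at an unadjusted p under 0.05, as were 10.7% of all genes. Slit2 was at 2932 and 3147 in DNTTIP1+/+ and 4901 to 5226 in MIDEAS+/+ lines, a log2 difference of -0.73 (95% interval -1.23 to -0.24, adjusted p = 0.40 by limma). DESeq2 alone of the 3 tools called it, among 267 of all genes.

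MIDEAS-/- replicate 1 was the lowest of the 3 MIDEAS-/- libraries for all 10 genes, as it was for 38.4% of all genes tested. Without it, Dcc (log2 fold change 3.53, adjusted p = 0.0336), Robo1 (0.55, adjusted p = 0.0596), Neo1 (0.41, adjusted p = 0.0827) and Ntn4 (-0.98, adjusted p = 0.0584) were called in the MIDEAS family by limma. Over all genes that fit called 2.53% higher and 1.59% lower. Over the alternatives the adjusted p of these genes ran from 0.0116 to 0.544 for Dcc, 0.0596 to 0.767 for Robo1, 0.0827 to 0.40 for Neo1 and 4.28e-05 to 0.0755 for Ntn4. Without that library 6 of the 10 genes (Ntn1, Slit3, Robo1, Robo2, Dcc and Neo1) had both knockout lines above all wild-type lines, against 18.6% of all genes, and Ntn4 had them below, against 17.5%. Without it the average effect was called for Dcc (3.14, adjusted p = 0.0111) and Unc5c (0.52, adjusted p = 0.0897) beside the other 4, and the adjusted p over the alternatives ran from 0.000692 to 0.285 for Dcc and 0.0897 to 0.580 for Unc5c. Without MIDEAS+/+ replicate 3, Ntn1 (1.01, adjusted p = 0.0747), Robo2 (2.04, adjusted p = 0.0531) and Slit3 were called in the MIDEAS family beside Ntn4, with adjusted p values over the alternatives of 0.0401 to 0.490 for Ntn1 and 0.0266 to 0.249 for Robo2. Without MIDEAS+/+ replicate 2, its lowest wild-type library, Robo2 was at 0.97 on the log2 scale (adjusted p = 0.208 by limma) against 1.59 with all libraries. With a library left out, the share of all genes called was taken only for MIDEAS without MIDEAS-/- replicate 1. The other calls in this paragraph therefore have no share to be read against.

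**Figure D4:**
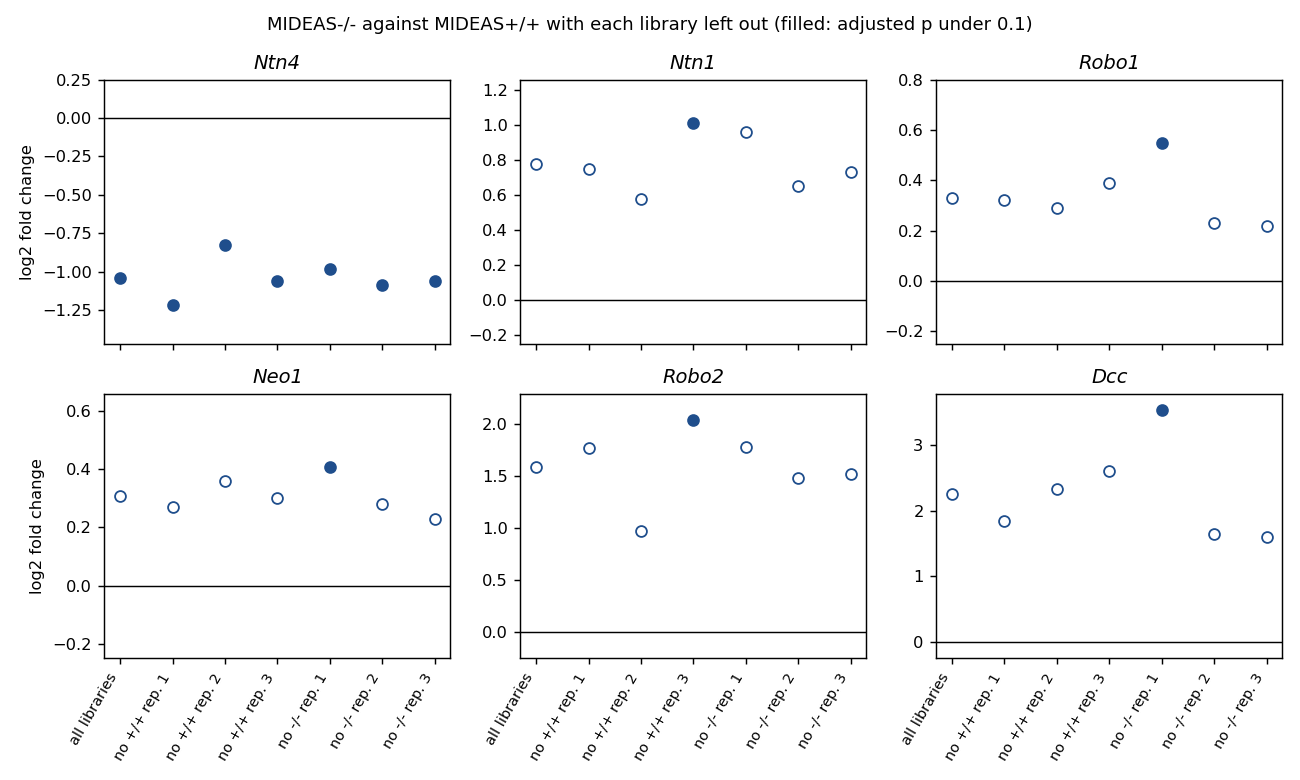
Log2 fold change of 6 genes in MIDEAS-/- against MIDEAS+/+ lines with all libraries and with each MIDEAS library left out, by limma; each panel has its own range, and filled points have an adjusted p under 0.1. Ntn4 is filled throughout, between -1.22 and -0.83, while Dcc, Robo1 and Neo1 are filled without MIDEAS-/- replicate 1 alone, and Ntn1 and Robo2 without MIDEAS+/+ replicate 3 alone.

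The 10 genes did not follow 1 profile over the 10 libraries (Pearson r of log2 counts, given as a description; the points share genotypes and families). Robo1 and Neo1 were closest, with r = 0.92, and Dcc had 0.89 with Robo1 and 0.87 with Neo1. Ntn4 ran against Robo2 (r = -0.87). Outside the 10, the genes with the profile most like Ntn4 were Ugcg (r = 0.970), Uhrf1bp1l (0.968) and Gfod1 (0.962). Those most like Ntn1 were Iqgap2 (0.980), Nap1l5 (0.970) and Grin2b (0.968), those most like Robo1 were Nynrin (0.983), Zc3h7b (0.972) and Xylt1 (0.960), and those most like Neo1 were Peg13 (0.955), Fbxl7 (0.951) and Rbms3 (0.950).

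The other members of these families were low. Of 10 listed paralogs, 9 were matched and 5 had enough counts to test (Ntng1, Ntng2, Robo3, Unc5a and Unc5d), and none was called in any of the comparisons by limma. Unc5d, another netrin receptor, had between 10.2 and 24.3 normalized counts in MIDEAS+/+ lines and between 18.6 and 33.0 in their knockout. The DNTTIP1 wild-type lines had 10.5 and 21.4 and the knockout lines 42.6 and 50.5. Its average effect was 1.19 (95% interval 0.38 to 2.00, adjusted p = 0.117 by limma). Ntng1, a membrane-anchored netrin, had an average effect of 1.03 (adjusted p = 0.327 by limma). For MIDEAS the smallest p values were those of Ntng1 (1.59, adjusted p = 0.223) and Unc5d (0.82, adjusted p = 0.417). For DNTTIP1 they were those of Unc5d (1.56, adjusted p = 0.636) and Ntng2 (-0.73, adjusted p = 0.884), all by limma. For the difference between both effects the smallest p values were those of Robo3 and Ntng1, and between wild types those of Ntng2 and Unc5a, all with adjusted p of 0.618 or more. Robo4, the endothelial Robo, had at most 2.23 normalized counts in any library.

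Of 20 tested genes for other ligands and co-receptors, 1 was called in the MIDEAS comparison and 2 for the average effect, and none for DNTTIP1, the difference or the wild types. The shares of all genes called were 3.36% higher and 2.29% lower for MIDEAS, and 4.04% and 2.19% for the average. Igdcc4, a receptor-like relative of Dcc and neogenin, rose in MIDEAS-/- lines, at 1362, 1413 and 1428 in MIDEAS+/+ and 2365, 2642 and 2239 in MIDEAS-/- lines (log2 fold change 0.78, adjusted p = 0.0245 by limma). It was at 1292 and 939 in DNTTIP1+/+ and 2051 and 1567 in DNTTIP1-/- lines (0.70, adjusted p = 0.349), and its average effect was 0.74 (adjusted p = 0.0108). Unlike Dcc and Robo1, Igdcc4 was not low in MIDEAS-/- replicate 1. Adora2b, an adenosine receptor that has been described as a netrin-1 receptor, fell in the average effect (-1.16, adjusted p = 0.0823 by limma), and its DNTTIP1 effect of -1.14 did not pass (adjusted p = 0.743). The median log2 fold change of the list was 0.003 for MIDEAS and 0.109 for DNTTIP1. For the difference the smallest p values were those of Plxna1 (-0.68) and Sdc3 (-0.39), and between wild types those of Rgmb (-0.42) and Plxna1 (-0.63), with adjusted p of 0.990 and of 0.413 and 0.417 by limma.

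The laminins, nidogens and integrins hold the matrix partners of netrin-4 and the receptors for them, and 5 of 17 tested genes were called in the MIDEAS comparison, 3 higher and 2 lower. Limma called 3.36% of all genes higher and 2.29% lower there, and 4.04% and 2.19% for the average effect. Itga3, an integrin subunit of laminin receptors, fell from 1726, 2502 and 1499 in MIDEAS+/+ to 374, 546 and 416 in MIDEAS-/- lines (log2 fold change -2.08, adjusted p = 0.0071 by limma). Lama5, the laminin alpha5 chain, fell from 5877, 5185 and 5045 to 1701, 3282 and 1624 (-1.36, adjusted p = 0.021). Nid2, which links laminin to collagen IV, rose by 0.78 (adjusted p = 0.0162), Lama3 by 2.32 (adjusted p = 0.0703) from low counts of 6.69 to 39.1, and Lama4 by 1.61 (adjusted p = 0.0866). In the average effect Nid2 (0.61, adjusted p = 0.0117), Itga3 (-1.28, adjusted p = 0.0126), Lama5 (-0.89, adjusted p = 0.035) and Lama3 (1.71, adjusted p = 0.0846) were called by limma. None was called for DNTTIP1, where the smallest p values were those of Nid2 (0.44, adjusted p = 0.573) and Lama2 (0.94, adjusted p = 0.706). None was called for the difference, where Itga3 (-1.61) and Itga6 (-1.58) had the smallest p values, both with an adjusted p of 0.990 by limma, or between wild types, where Lama5 (-0.94, adjusted p = 0.40) and Lama4 (0.95, adjusted p = 0.511) did. The median of the list was 0.112 for MIDEAS and 0.299 for DNTTIP1.

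Of 34 tested cytoplasmic effectors, 2 were called in the MIDEAS comparison and 3 for the average effect. Over all genes tested, 3.36% were called higher and 2.29% lower for MIDEAS, and 4.04% and 2.19% for the average. Src, a tyrosine kinase that acts downstream of Dcc, fell in MIDEAS-/- lines (2061, 2625 and 2050.0 in MIDEAS+/+ against 1718, 1614 and 1571; log2 fold change -0.45, adjusted p = 0.0745 by limma), with an average effect of -0.40 (adjusted p = 0.0472). Dapk1, a kinase that binds Unc5b, rose by 0.49 in the average effect (adjusted p = 0.0993). None was called for DNTTIP1, the difference or the wild types. The smallest p values were those of Srgap3 (0.78, adjusted p = 0.644) and Trio (0.64, adjusted p = 0.691) for DNTTIP1, of Trio (-0.74) and Pak2 (-0.35) for the difference, with adjusted p of 0.990, and of Trio (-0.77, adjusted p = 0.40) and Srgap3 (-0.76, adjusted p = 0.416) between wild types, all by limma. The median of the list was -0.118 for MIDEAS and 0.096 for DNTTIP1.

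Other cell types in the cultures were read from marker lists, since in bulk RNA a change in the number of cells of a type and in RNA per cell cannot be told apart. Beside the calls below, 3.36% of all genes were called higher and 2.29% lower for MIDEAS, and 4.04% and 2.19% for the average. Of the 10 fibroblast markers Dcn alone was called by limma. It was higher for MIDEAS (1.23, adjusted p = 0.041) and for the average (0.91, adjusted p = 0.046). Pdgfra had 1.87 for MIDEAS and was not called (adjusted p = 0.125 by limma). For MIDEAS 5 of these 10 log2 fold changes were above 0. The part of these shifts in the values of the guidance genes was not tested. The summed normalized count of the neural markers ran between 957 and 1265 in MIDEAS+/+ lines and between 716 and 1376 in MIDEAS-/- lines. The DNTTIP1 sums ran between 782 and 1056 in wild-type and between 589 and 947 in knockout lines, so that the groups of both families overlapped, and 1 of 10 was called, Stmn2, which was lower in the average effect. Neurod1 and Olig2 were at or near 0 in every library, and 6 of the 10 neural markers were too low to test. The smooth muscle markers (6 genes) had sums between 8054 and 12083 in MIDEAS+/+ lines, against 4437 to 6564 in their knockout. The DNTTIP1 wild-type lines had sums of 8087 and 9249, against 5544 and 7411 in knockout lines, lower without overlap as in the MIDEAS family, with Myh11 and Des called lower in the MIDEAS comparison. This is the direction of Ntn4, and their part in that result was not tested. The cartilage and bone markers (7 genes, none at 0 in a whole group) had sums between 4008 and 5474 in MIDEAS+/+ lines, against 5423 to 6874 in their knockout. The DNTTIP1 wild-type lines had sums of 4752 and 7267, against 8721 and 9740 in knockout lines, without overlap in the DNTTIP1 family alone, with 2 genes called higher for MIDEAS, Alpl and Sox9. For the average effect Sox9 (0.84, adjusted p = 0.0313) and Col2a1 (0.67, adjusted p = 0.0898) were called higher by limma. Acan alone of the 7 went the other way, with log2 fold changes of -0.61 for MIDEAS and -0.96 for DNTTIP1, and was not called. The direction of the sums is that of Ntn1, Neo1 and Robo1, and the part of these cells in those results was not tested. Epithelial markers (6 genes) summed to between 154 and 517 in MIDEAS+/+ lines and between 52.7 and 211 in MIDEAS-/- lines, and to 370 and 562 against 172 and 373 in the DNTTIP1 family. The groups overlapped in both, and Krt18, a keratin, was called lower for MIDEAS (-1.57, adjusted p = 0.0641 by limma). The macrophage sums (6 genes) overlapped in both families, and none of the 6 was called, although all 6 had negative log2 fold changes for MIDEAS and for the average. The Schwann and neural crest markers (6 genes, 3 tested) had sums of at most 167, and those of DNTTIP1-/- lines (53.6 and 73.3) lay below those of DNTTIP1+/+ lines (98.1 and 149), with none called. Endothelial sums (7 genes, 3 tested) overlapped in both families, and Tek, an endothelial receptor kinase, was called higher for MIDEAS (2.61, adjusted p = 0.0739 by limma) and for the average. The others tested, Emcn and Kdr, went the other way for MIDEAS, with log2 fold changes of -1.85 and -0.77, and were not called. The part of these cell types in the values of Ntn4, Lama5 and Itga3 was not tested. Skeletal muscle markers (6 genes) were at 709 and 1469 in the replicates 2 of DNTTIP1+/+ and DNTTIP1-/-, at 544 in MIDEAS-/- replicate 3 and at 8.26 in MIDEAS-/- replicate 1, against 14.8 to 106 elsewhere, and their part in the values of Dcc was not tested.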

How the data were processed

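RNA-seq libraries of 10 MEF lines were analysed. The authors trimmed adaptors, aligned reads to mm10, removed duplicates and used DESeq2, with STAR 2.5.2b, SAMtools 1.3.2, Picard, cutadapt 1.11 and Trim Galore 0.4.5 named in the submitters' processing notes. Which program counted the reads, with which annotation and strand setting, is not given in the sources used here. Removing duplicates lowers high counts most, which compresses differences among abundant genes. The deposited signal is a normalized count, in which the authors scaled each library's reads by its size factor. Within a tolerance of 0.01, 100.0% of values in every library fell on whole steps of 1 read, which gave back the reads, between 12339970 and 19761295 in a library. Low genes carry more counting error. The authors' tables of their own comparisons, which hold mean counts, log2 fold changes and p-values, were not used.

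Genes with a mean of at least 10 normalized counts (16227 of 53801) were tested on log2(value + 1) with limma 3.58.1 (trend, robust) in R 4.3.3, in 1 fit with a coefficient for each of the 4 groups, so that all groups share 1 estimate of the spread. Contrasts were each knockout against the wild type of its family, the average of both effects, their difference, and DNTTIP1+/+ against MIDEAS+/+. A gene is called at an adjusted p (Benjamini-Hochberg) under 0.1. The methods of the study set its P-value at 0.1 and do not mention an adjustment. On the reads, edgeR 4.0.16 (quasi-likelihood) called 856 genes for MIDEAS, 5 for DNTTIP1 and 991 for the average, against 917, 5 and 1011 with limma, and DESeq2 1.42.0 called 1674, 206 and 1731. Other alternatives were the pseudocount, the minimum mean, the scaling, separate fits, no trend, all 5 wild-type lines as controls, a replicate block, the threshold and each library left out. The fits were tested on simulated data. Of 166 listed genes 165 were matched by symbol. Levels per kilobase use the longest protein-coding transcript of GENCODE M21, and promoters and motifs come from RefSeq tables. All 10 genes are named in full. For the lists of paralogs, other ligands, matrix genes and effectors the called genes are named, or the 2 with the smallest p where none is called. For the marker lists only called genes are named by rule. The 10 genes and all lists were chosen with earlier results of these data known. Of the called cytoplasmic effectors, 1 is counted but not reported here.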

Additional observations from a re-analysis of the deposited data

Results flagged for a closer look

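Itga6, the integrin alpha6 subunit of laminin receptors, had log2 fold changes of opposite sign in the families, -0.90 for MIDEAS (adjusted p = 0.209 by limma) and 0.68 for DNTTIP1 (adjusted p = 0.871), neither of which passed. All 3 MIDEAS-/- lines (329, 691 and 801 normalized counts) lay below all MIDEAS+/+ lines (874, 1540.0 and 882), as for 11.0% of all genes, and both DNTTIP1-/- lines (1033 and 1224) lay above both DNTTIP1+/+ lines (564 and 869), as for 20.1%. The difference between the effects was -1.58 on the log2 scale (95% interval -2.78 to -0.39, adjusted p = 0.990 by limma), and so it did not pass the test across all genes.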

How the results depend on the processing

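With 2 or 3 lines a group, calls near the threshold moved with single lines. For MIDEAS-/- against MIDEAS+/+, 1 of the 10 genes was called with all libraries, 5 with DESeq2 (Ntn1, Ntn4, Robo2, Dcc and Neo1), 2 with all 5 wild-type lines as controls and 4 with the replicate block, and between 1 and 4 with single libraries left out (4 without MIDEAS+/+ replicate 3 or MIDEAS-/- replicate 1). Over all genes tested, limma called 917 with all libraries, 851 with all 5 wild-type lines as controls and 2127 with the replicate block. DESeq2 called 1674. With single libraries left out, the share of all genes was taken only for MIDEAS without MIDEAS-/- replicate 1. Ntn4 was called in all 22 alternatives for MIDEAS. For the average effect 4 genes were called, 0 at an adjusted p under 0.05 and 0 without the trend, and between 0 and 6 with single libraries left out, 0 without either DNTTIP1+/+ replicate 2 or DNTTIP1-/- replicate 2, and 1 (Ntn1) without DNTTIP1-/- replicate 1. It was 1 (Ntn4) without MIDEAS+/+ replicate 1 or MIDEAS-/- replicate 2, and 2 (Neo1 and Ntn4) without MIDEAS+/+ replicate 2 or MIDEAS-/- replicate 3. Over 21 alternatives at the same threshold Ntn4 kept the call in 17, Neo1 in 15, Ntn1 in 13 and Robo1 in 11. Between wild types DESeq2 called 1 of the 10 genes, Slit2, and 267 of all genes. Leaving out single libraries gave 0 to 1 by limma (1, Slit2, without MIDEAS-/- replicate 1). For DNTTIP1 and for the difference no alternative called any of the 10. The cause of these moves was not tested.

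Signs turned for Unc5c, Unc5b and Slit2. Unc5c for MIDEAS ran from -0.099 to 0.29 with single libraries left out, Unc5b for DNTTIP1 from -0.16 to 0.35 and for the average from -0.23 to 0.032, and Slit2 for the average from -0.068 to 0.16. With all 5 wild-type lines as controls, Slit2 had -0.070 for DNTTIP1, where it had 0.37 against the DNTTIP1+/+ lines, and -0.055 for the average, and Unc5b -0.026 for DNTTIP1. Of 677 values of single genes under the alternatives, 12 changed sign, 32 lost the call and 23 gained it. Rescaling moved the median gene of a library by less than 0.1 on the log2 scale.

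Replicate numbers were checked as pairs. Same-numbered wild-type and knockout lines correlated in their deviations from the group mean at 0.206, -0.110 and -0.0494 in the MIDEAS family. In the DNTTIP1 family the value was 0.656, where 2 lines a group give 1 size of r with either sign. There both replicates 1 had high Y-linked reads and both replicates 2 expressed Xist. Their skeletal muscle sums were 14.8 and 17.5 in replicates 1 against 709 and 1469 in replicates 2. Whether equal numbers mark a shared litter is not stated, and what these lines share was not tested. Not every MIDEAS line correlated best with its own number. With the replicate block 4 of the 10 genes were called for MIDEAS (Ntn1, Ntn4, Robo2 and Dcc), 6 for the average and 0 for DNTTIP1, and over all genes 2127, 1970 and 94. Dcc has at most 27 reads in any wild-type line, which limits its fold changes.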
